A study of Mus musculus with 8 samples.

Results

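The heat shock proteins and chaperones described here were 10 genes of the 29955 gene names listed for each library. They were chosen by symbol, as Hspa1a, Hspa1b, Hspa8, Hspa5, Hsp90aa1, Hsp90ab1, Hsph1, Dnajb1, Hspd1 and Hspe1, to cover inducible and constitutive chaperones of the cytosol and those of the endoplasmic reticulum (ER) and of mitochondria. The list was drawn up with results of these libraries known, so the members' values are given as a description, without p-values. Tests are given for 140 other chaperone genes in 9 lists, which were likewise chosen with earlier results of these data known. RNA-seq was performed on bone marrow cells of wild-type (WT) mice and of mice that lack Ripk3 (Ripk3-/-), a kinase of the necroptosis pathway. Cells had been sorted as LSK, lineage-negative cells positive for Sca1 and Kit that include the stem cells and early progenitors, or as LK, lineage-negative Kit-positive cells that are mostly committed myeloid progenitors. Each of the 4 combinations of genotype and population had 2 libraries, all labelled with the strain background CD57BL6/J and the tissue bone marrow, and no age. The labels name no treatment for any group, while the study's text states fractionated low-dose X-irradiation of both genotypes and collection 1 month later. The labels do not say whether replicates came from separate mice, so any p-value here measures the spread between these libraries, which may be technical.

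Chaperones bind unfolded or partly folded proteins and keep them from aggregating. HSP70 proteins (Hspa genes) bind short exposed stretches of a client in cycles of ATP hydrolysis that J-domain proteins such as Dnajb1 start and exchange factors such as Hsph1 reset, and HSP90 proteins take over clients at a later stage of folding. Heat shock factor 1 (Hsf1) switches on the inducible genes through heat shock elements, inverted repeats of GAA and TTC, and the unfolded protein response switches on ER chaperones through ER stress response elements.

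The promoter windows of the HSP70 pair are shown because these were the members that differed most between genotypes. They are the 250 bases before the RefSeq start site of each gene on GRCm38.p6, written 5′ to 3′ along the transcribed strand, with the heat shock element of a GAA unit followed by a TTC unit in capitals. Hspa1a lies on the minus strand at chr17:34969190-34972156, and its window is chr17:34972157-34972406. Hspa1b lies on the same strand at chr17:34956436-34959238, and its window is chr17:34959239-34959488.
Hspa1a: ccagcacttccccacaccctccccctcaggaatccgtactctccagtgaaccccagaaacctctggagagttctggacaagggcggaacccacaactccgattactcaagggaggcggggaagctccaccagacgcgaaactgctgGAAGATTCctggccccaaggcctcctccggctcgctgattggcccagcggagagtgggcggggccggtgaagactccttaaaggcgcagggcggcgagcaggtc
Hspa1b: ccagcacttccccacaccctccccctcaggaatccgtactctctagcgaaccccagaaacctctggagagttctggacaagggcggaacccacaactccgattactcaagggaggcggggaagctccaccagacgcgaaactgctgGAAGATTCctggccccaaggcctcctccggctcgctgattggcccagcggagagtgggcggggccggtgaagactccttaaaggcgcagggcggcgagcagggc
The windows were identical at 247 of 250 positions (98.8%). Counted from 1 at the 5′ end, the changes from Hspa1a to Hspa1b were C44T, T47C and T249G. In both windows the marked element began 104 bases before the start site. The longest coding transcripts of the genes were 99.2% identical over 2201 aligned bases, with 12 mismatches, so the authors' counting could have moved reads between the pair.

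The sites found before the mitochondrial and ER genes are shown for comparison, since those members lie in other compartments. A run of 4 alternating units before Hspe1, which holds 2 overlapping matches to the 3-unit form, lies on the plus strand at chr1:55088059-55088076 and begins 89 bases before the start. The same stretch, read from the other strand, lies in a window of Hspd1, a neighbour transcribed in the opposite direction. The ER stress response element before Hspa5 lies on the plus strand at chr2:34772025-34772043 and begins 65 bases before the start. Bases in capitals below are the matched sites alone.
Hspe1: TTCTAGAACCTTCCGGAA
Hspa5: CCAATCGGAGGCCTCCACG
The search covered both strands with the letters GAANNTTC or TTCNNGAA for 2 units, GAANNTTCNNGAA or TTCNNGAANNTTC for 3 units, which contain the former, and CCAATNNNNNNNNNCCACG for the ER element. Of 32851 windows in the RefSeq table, 12.8% held the 2-unit form, 0.466% the 3-unit form and 0.113% the ER element. A match is a description of letters and not a measured site. Windows were matched for 7 of the 10 members. A 2-unit form was found 33 bases before a start of Hsph1, and no form of the element was found in the windows of Dnajb1.

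The whole series was examined first for depth, labels and cell content. Recovered reads per library ran from 9782166 to 16280811. Ripk3 had a deposited signal of 162 and 168 in WT LSK and 3.38 and 1.08 in Ripk3-/- LSK, and of 144 and 149.7 in WT LK and 16.2 and 10.6 in Ripk3-/- LK, so every library matched its genotype label. The sort labels were matched by Ly6a, which encodes Sca1, at a signal of 141 to 237 in LSK and 0.124 to 4.12 in LK. All WT libraries had Xist reads and 0 reads of the 4 Y-linked genes, while all Ripk3-/- libraries had Y-linked reads and an Xist signal of 0 to 1.27, so genotype and the sex of the mice cannot be told apart in any comparison below. The 9 neutrophil markers had a summed signal of 708 to 770.0 in WT LSK against 2339.5 to 2768.4 in Ripk3-/- LSK, and of 784.5 to 787.5 in WT LK against 1687.2 to 1688.8 in Ripk3-/- LK, with none of them at 0 in any group. The 9 LSK and HSPC markers summed to 2367.7 to 2446.4 in WT LSK against 3231.9 to 3660.6 in Ripk3-/- LSK, and the 9 LK and myeloid progenitor markers to 7787.1 to 8773.2 against 5616.4 to 7163.6, without overlap. In LSK the sums of erythroid and lineage-depletion markers were also higher in Ripk3-/- without overlap, and those of monocyte and stromal markers lower. In LK those of HSPC, stromal and lineage-depletion markers were higher without overlap, and those of B and T cell markers lower. B and T cell sums overlapped in LSK, as did erythroid, monocyte and LK marker sums in LK. In bulk samples, fewer cells of a type and less RNA per cell cannot be told apart.

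The inducible HSP70 genes were lower in Ripk3-/- cells of both populations. The deposited signal of a gene is its read count scaled to the library's size, with no division by gene length, and the authors scaled the LSK and the LK libraries separately. The signal of Hspa1a, the stress-inducible cytosolic HSP70, was 48.0 and 58.2 in WT LSK and 13.6 and 15.9 in Ripk3-/- LSK. Its signal in LK was 189 and 189.8 in WT and 74.7 and 70.2 in Ripk3-/-. The WT and Ripk3-/- libraries did not overlap in either population, and the WT mean was 3.6 times that of Ripk3-/- in LSK and 2.62 times in LK. The limma log2 differences on log2(signal + 1) were -1.78 ± 0.25 (SE) in LSK and -1.38 ± 0.25 in LK.

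Hspa1b, the nearly identical neighbour, had a signal of 87.4 and 114 in WT LSK and 35.5 and 30.0 in Ripk3-/- LSK. In LK its signal was 228 and 239.9 in WT and 98.1 and 105 in Ripk3-/-. Again no library of either genotype reached into the range of the other. The log2 differences were -1.58 ± 0.22 (SE) in LSK and -1.19 ± 0.22 in LK. Summing the signal of Hspa1a and Hspa1b, which was chosen after seeing the data because the transcripts are so alike, gave -1.66 in LSK and -1.28 in LK. The ratio of Hspa1a to Hspa1b signal was 0.382 to 0.549 in LSK and 0.666 to 0.829 in LK.

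**Figure D1:**
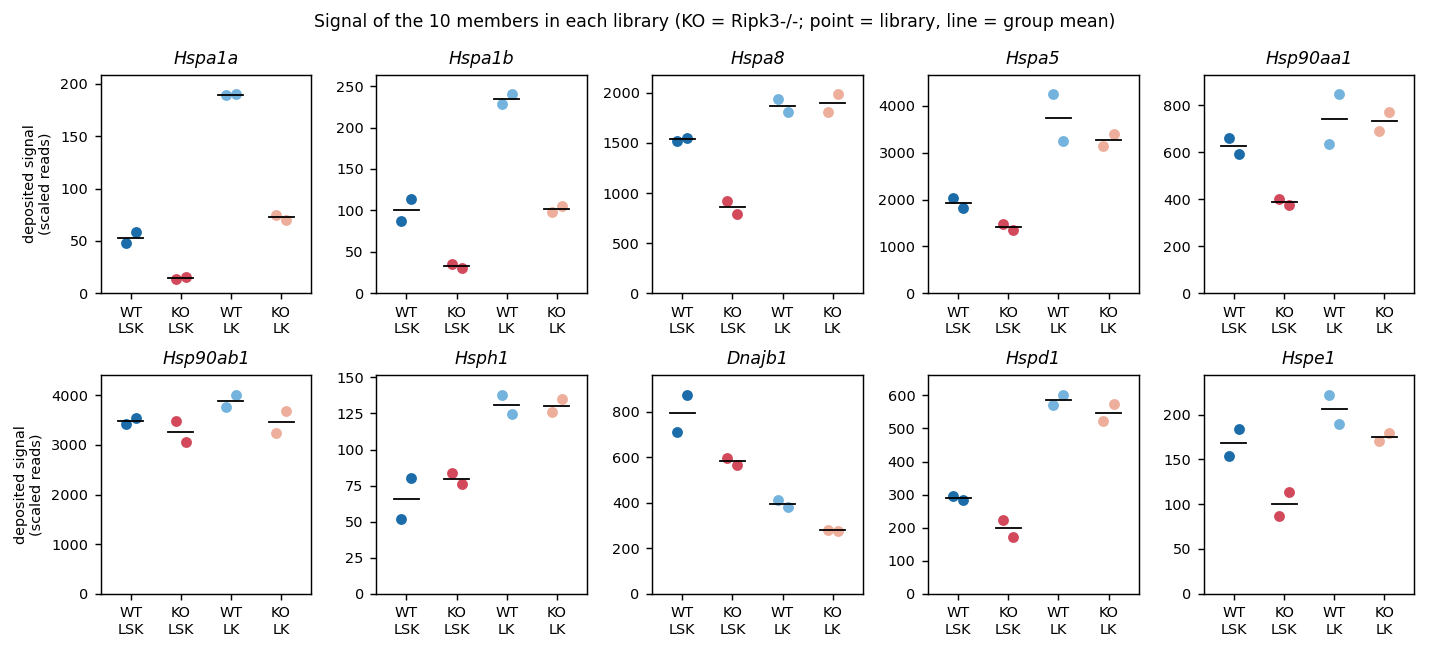
Deposited signal (scaled reads, linear axis from 0) of each of the 10 members in the 8 libraries, where a point is a library and a line the group mean of 2. Hspa1a and Hspa1b were lower in both Ripk3-/- groups than in WT, the genotypes were separate for Hspa8 and Hsp90aa1 in LSK and overlapped in LK, and the LSK and LK values of a panel were scaled separately.

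The other stress-inducible members of the cytosol did not share one pattern. Dnajb1, the J-domain partner that starts the HSP70 cycle, had a signal of 710 and 874 in WT LSK against 597 and 567 in Ripk3-/- LSK. Its LK signal was 410 and 381 in WT against 279 and 277 in Ripk3-/-. Both comparisons had all Ripk3-/- libraries below all WT libraries, with log2 differences of -0.44 ± 0.16 (SE) in LSK and -0.51 ± 0.16 in LK. Hsp90aa1, the inducible cytosolic HSP90, had a signal of 659 and 591 in WT LSK and of 401 and 377 in Ripk3-/- LSK. In LK its signal was 634 and 846 in WT and 690.2 and 773 in Ripk3-/-. The genotypes were thus separate in LSK and overlapped in LK, and the log2 differences were -0.68 ± 0.16 (SE) and -0.00 ± 0.16. Hsph1, the large HSP110 exchange factor, was the member with a positive difference in LSK. Its signal was 51.6 and 80.0 in WT LSK, 83.6 and 75.8 in Ripk3-/- LSK, 138 and 124 in WT LK and 126 and 135 in Ripk3-/- LK, so the genotypes overlapped in both populations. The log2 differences of Hsph1 were 0.30 ± 0.23 (SE) in LSK and -0.01 ± 0.23 in LK, and the value in LSK ranged from -0.01 to 0.62 over the alternatives.

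Of the constitutive cytosolic members, Hspa8 was lower in Ripk3-/- LSK and Hsp90ab1 was not separated there. Hspa8 encodes the housekeeping HSP70, which also strips clathrin coats and feeds chaperone-mediated autophagy. Its signal was 1520.2 and 1551 in WT LSK against 925 and 794 in Ripk3-/- LSK. In LK the signal was 1934 and 1809.8 in WT and 1805 and 1983 in Ripk3-/-, where the genotypes overlapped. The log2 differences were -0.84 ± 0.14 (SE) in LSK and 0.02 ± 0.14 in LK. Hsp90ab1, the constitutive HSP90, had a signal of 3419.6 and 3541 in WT LSK and of 3476 and 3052 in Ripk3-/- LSK. Its LK signal was 3762.5 and 4013 in WT and 3248 and 3690.5 in Ripk3-/-, where both Ripk3-/- libraries were lower by a small margin. The log2 differences of Hsp90ab1 were -0.10 ± 0.13 (SE) in LSK and -0.17 ± 0.14 in LK. The signal ratio of Hsp90aa1 to Hsp90ab1 was 0.193 and 0.167 in WT LSK and 0.115 and 0.124 in Ripk3-/- LSK, and lay between 0.169 and 0.213 in LK.

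The ER and mitochondrial members were likewise below the WT range in the LSK libraries of Ripk3-/- mice. Hspa5 encodes BiP, the HSP70 of the ER lumen and the sensor partner of the unfolded protein response. Its signal was 2023 and 1822 in WT LSK and 1470.2 and 1354 in Ripk3-/- LSK. In LK it was 4239 and 3246 in WT and 3149 and 3391 in Ripk3-/-, and WT replicate 1 stood above the other 3 libraries. The log2 differences were -0.44 ± 0.14 (SE) in LSK and -0.18 ± 0.15 in LK. Hspd1 and Hspe1 encode the HSP60 ring and its HSP10 lid, which fold imported proteins in the mitochondrial matrix. The signal of Hspd1 was 297 and 285 in WT LSK, 224 and 173 in Ripk3-/- LSK, 572 and 602 in WT LK and 522 and 573 in Ripk3-/- LK. That of Hspe1 was 153 and 184 in WT LSK, 86.3 and 114 in Ripk3-/- LSK, 222 and 189 in WT LK and 170.0 and 179.8 in Ripk3-/- LK. The log2 differences in LSK were -0.56 ± 0.17 (SE) for Hspd1 and -0.76 ± 0.20 for Hspe1, and those in LK were -0.10 ± 0.17 and -0.23 ± 0.20. In LSK the genotypes did not overlap for Hspa5, Hspd1 or Hspe1, whereas in LK they overlapped for Hspa5 and Hspd1. The genes overlap by 112 bases at chr1:55088132-55088243 (GRCm38) on opposite strands, and the kit named in the labels keeps the strand, but whether the authors' counting used it is not given in the sources used here.

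All 10 members passed the filter of a mean signal of at least 1. Of them, 4 (Hspa1a, Hspa1b, Hspa8 and Hsp90aa1) were past an adjusted p of 0.05 in limma in LSK, all lower in Ripk3-/-, where 1.27% of the 16817 genes tested were called lower. In LK the count was 2 of 10 (Hspa1a and Hspa1b), all lower, where 0.373% of 13949 genes were called lower. These counts describe a list chosen with such results known. Hsp90aa1 lost its LSK call in 10 of 17 alternatives, among them each one that left out an LSK library. Without WT LSK replicate 2 the LSK count was 2 (Hspa1a and Hspa1b), and with any 1 of the 4 LK libraries left out the LK count was 0. In LSK, 8 members had all Ripk3-/- libraries below all WT libraries, as did 23.2% of all genes tested, and in LK 5 did, against 19.9%. Hspa1a, Hspa1b, Dnajb1 and Hspe1 were separated in this way in both populations, as were 4.84% of 15901 genes. The median log2 difference of the members was -0.62 in LSK and -0.175 in LK, beside medians of -0.009 and 0.009 over all genes tested. The LK median of the members lay within the range of the other chaperone lists given below.

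**Figure D2:**
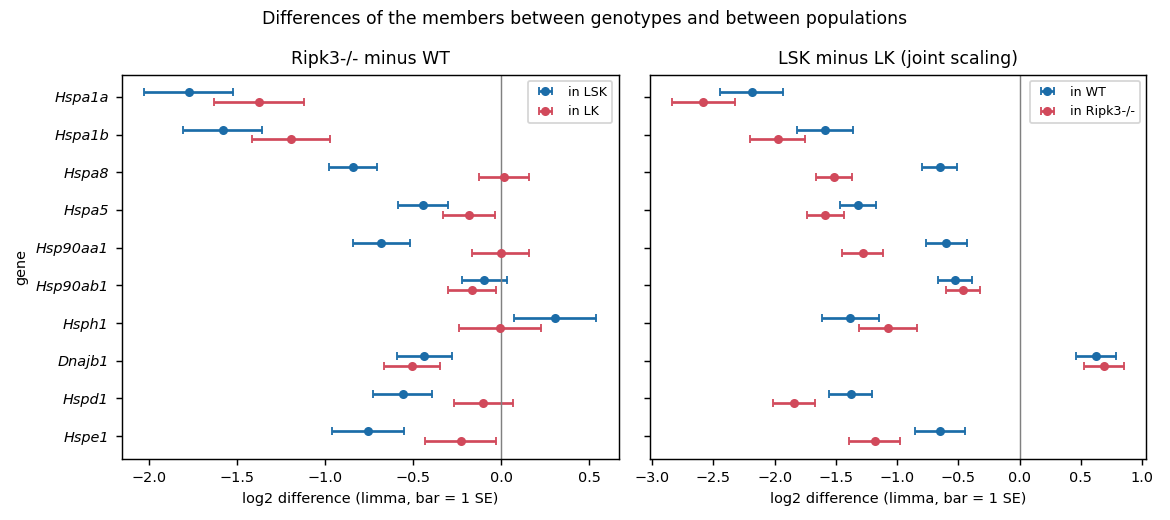
Limma log2 differences (points) with 1 SE (bars) of the 10 members, for Ripk3-/- minus WT on the left and for LSK minus LK after joint scaling on the right. On the left Hspa1a and Hspa1b lie below -1 in both populations and Hspa8 lies at -0.84 in LSK and 0.02 in LK, and on the right Dnajb1 alone lies above 0.

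The genotype difference in LSK minus that in LK was the most negative for Hspa8, at a log2 value of -0.86 ± 0.20 (SE), followed by Hsp90aa1 at -0.68 ± 0.23 and Hspe1 at -0.53 ± 0.29. For Hspa1a and Hspa1b it was -0.40 ± 0.36 and -0.39 ± 0.32. No member was past the threshold in this comparison in limma, where 0.358% of 15901 genes were called. At an unadjusted p under 0.05 there were 2 members, beside 1613 of the 15901 genes. Hspa8 was past the adjusted threshold in DESeq2 and after quantile normalization, and edgeR called 0 members. Both genotype comparisons use the same fit, but no library is shared between them. The labels do not say whether the LSK and LK libraries of a genotype came from the same mice. The genotype comparisons may thus not be independent, and LSK was tested against LK without pairing.

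The share of all reads that fell on the 10 members was 0.923% and 0.894% in WT LSK and 0.719% and 0.659% in Ripk3-/- LSK. In LK it was 1.16% in both WT libraries and 1.1% and 1.11% in the Ripk3-/- libraries. The Ripk3-/- libraries were thus below the WT libraries in both populations, by a wider margin in LSK. Hspa5, Hsp90ab1 and Hspa8 make up most of these reads.

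Some immediate-early genes, a class that is induced within minutes of a stimulus, were also lower in Ripk3-/- cells. Of the 22 on the list, 3 of 22 tested in LSK and 7 of 21 tested in LK fell in Ripk3-/- cells and 0 rose, at an adjusted p under 0.05 in limma, where 1.27% and 0.373% of all genes were called lower. Their summed signal was 31335 to 32922 in WT LSK and 29736 to 33271 in Ripk3-/- LSK, which overlapped, and 14152.5 to 14500.2 in WT LK and 10409.6 to 12712.5 in Ripk3-/- LK, which did not, with no gene of the list at 0 in a group. Fos had a signal of 7129.5 and 7590.0 in WT LSK against 9509.8 and 8126 in Ripk3-/- LSK (log2 difference 0.26 ± 0.14 SE, adjusted p = 0.325, limma). The part of these genes, of the cell markers given above and of sex in the differences of the members was not tested.

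Of the 140 other chaperone genes, 135 passed the filter in LSK, where 1 rose and 1 fell in limma, beside 2.16% of all genes called. At an unadjusted p under 0.05 there were 24 of the 135, a share like that of all genes, where 3011 of 16817 were. DESeq2 called 6 and edgeR 1. Chordc1, a HSP90 co-chaperone with zinc-binding domains, had a signal of 75.9 and 68.4 in WT LSK against 146 and 133 in Ripk3-/- LSK, a log2 difference of 0.95 ± 0.21 (SE) with an adjusted p of 0.0208 in limma. In LK the signal of Chordc1 was 145.5 and 111.5 in WT and 124 and 136 in Ripk3-/- (log2 difference 0.03 ± 0.21, adjusted p = 0.987). Hsf5, a heat shock factor known from the testis, had a signal of 6.16 and 5.905 in WT LSK and of 0.322 and 0.293 in Ripk3-/- LSK, close to the 0.241 and 0.293 that 3 reads were worth there (log2 difference -2.43 ± 0.63 SE, adjusted p = 0.0463). The call of Chordc1 was lost when any 1 of the 4 LSK libraries was left out, and that of Hsf5 when any 1 of the 8 libraries was left out.

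The factors and partners most closely tied to the members were not called between genotypes. Hsf1, the master regulator of the heat shock response, had a signal of 75.8 and 103 in WT LSK and of 98.2 and 66.3 in Ripk3-/- LSK (log2 difference -0.13 ± 0.25 SE, adjusted p = 0.823 in limma). In LK the signal of Hsf1 was 81.6 and 98.1 in WT and 88.3 and 105 in Ripk3-/- (log2 difference 0.11 ± 0.25, adjusted p = 0.976). Bag3, an HSP70 exchange factor of selective autophagy and itself a heat shock gene, had a signal of 36.6 and 24.2 in WT LSK against 36.4 and 28.1 in Ripk3-/- LSK, and of 35.9 and 33.4 in WT LK against 25.6 and 18.8 in Ripk3-/- LK (log2 differences 0.10 ± 0.34 and -0.64 ± 0.34, adjusted p = 0.912 and 0.815). Hsp90b1, the ER HSP90, had a signal of 301 and 221 in WT LSK and of 354 and 308 in Ripk3-/- LSK, which runs opposite to Hspa5 (log2 difference 0.36 ± 0.17, adjusted p = 0.278). In LK the signal of Hsp90b1 was 569 and 632 in WT and 740.0 and 742 in Ripk3-/- (log2 difference 0.305 ± 0.17, adjusted p = 0.823). Hspa9, the mitochondrial HSP70, had a signal of 421 and 305 in WT LSK and 379 and 391 in Ripk3-/- LSK, where the genotypes overlapped (log2 difference 0.105 ± 0.17, adjusted p = 0.787).

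In LK, 131 of the 140 other chaperone genes were tested and limma called 0, where 0.473% of all genes were called. Of the 131, 7 were at an unadjusted p under 0.05, beside 915 of 13949 over all genes. DESeq2 called 1 and edgeR 0. The genotype difference itself differed between LSK and LK for 0 of 132 other chaperone genes in limma, with 1 called by DESeq2 and 0 by edgeR. Of the 132, 8 were at an unadjusted p under 0.05, beside 1613 of 15901 over all genes. By list, the median log2 difference in LSK was 0.12 over 16 genes of the cytosolic HSP70 system, 0.04 over 18 J-domain genes, -0.03 over 19 HSP90 co-chaperones, 0.095 over 14 TRiC and prefoldin genes, 0.04 over 25 ER chaperones and -0.04 over 20 mitochondrial chaperones and proteases. These medians lie near the -0.009 of all genes, whereas the 7 small heat shock genes that passed the filter of 10 listed had differences from -1.99 to -0.09 with 0 called. Hspb7, Hspb9 and Cryab passed it only through WT, at mean signals of 2.27 ± 2.79 (SD, n = 2), 2.04 ± 2.88 and 3.70 ± 0.04. Their means in Ripk3-/- LSK were 0.04, 0.28 and 0.19, and for such genes the filter itself favours a negative difference. Hspb1, Hspb6, Hspb8 and Hspb11 had means above 1 in both genotypes. No list median other than that of the members and of the small heat shock genes was below -0.07 in LSK. In LK the member median of -0.175 was not set apart in this way. The LK medians were -0.44 for small heat shock genes, -0.212 for J-domain genes, -0.169 for TRiC and prefoldin and -0.156 for the HSP70 system. Of the 4 small heat shock genes tested in LK, Hspb1 and Cryab had a Ripk3-/- mean below 1. HSP90 co-chaperones and the mitochondrial list were both at -0.109. ER chaperones, ER stress regulators and heat shock factors were above 0, at 0.045, 0.194 and 0.279.

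**Figure D3:**
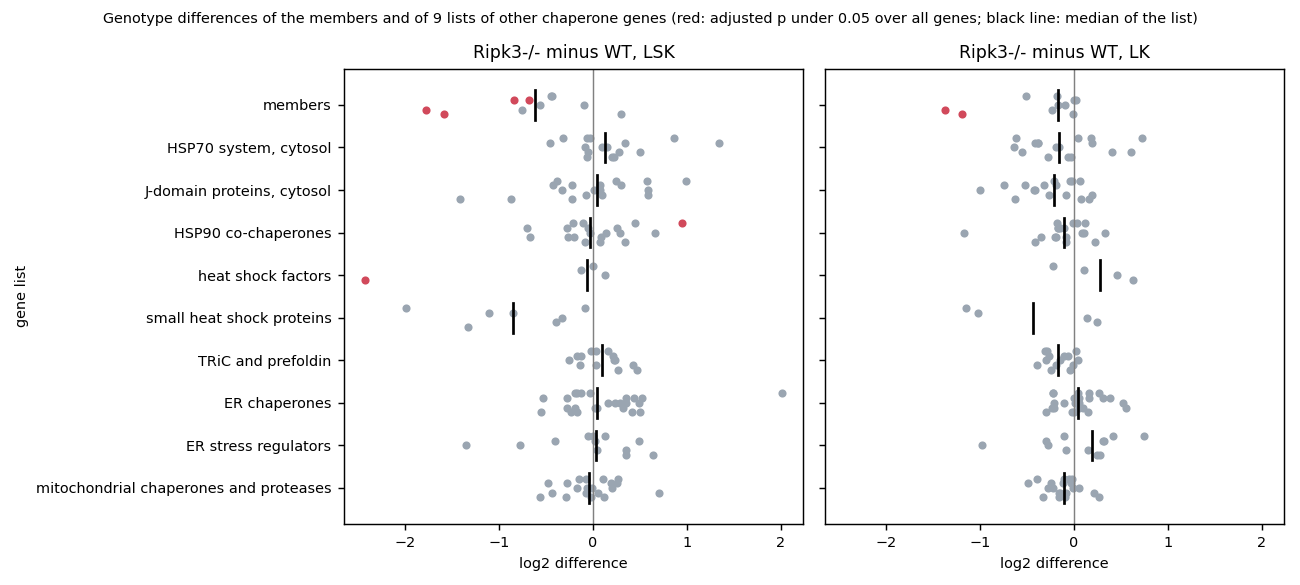
Log2 differences of Ripk3-/- minus WT in LSK (left) and LK (right) for the members and for the genes tested in 9 lists of other chaperone genes, 1 point per gene, in red where the adjusted p was under 0.05 over all genes, with a black line at the median of a list. The member medians are -0.62 in LSK and -0.175 in LK, and outside the members the red points are Chordc1 at 0.95 and Hsf5 at -2.43 in LSK.

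Between the populations, 9 of the 10 members were lower in LSK than in LK. For this comparison the recovered reads of all 8 libraries were scaled together, since the deposited scales differ, and the joint signal was 0.875 to 0.886 times the deposited signal in LSK and 1.13 to 1.15 times in LK. All 10 members were past an adjusted p of 0.05 in limma in each genotype, 9 lower in LSK and Dnajb1 higher, where 14.9% of 15757 genes were called lower in WT and 11.7% in Ripk3-/-, and 8.98% and 7.56% were called higher. With quantile normalization 6 members passed in WT, and Hspa8, Hsp90aa1, Hsp90ab1 and Hspe1 did not. With no filter on low values 7 passed in WT, and Hsp90aa1, Hsp90ab1 and Hspe1 did not. When a library was left out, the WT log2 differences ran from -0.80 to -0.40 for Hsp90aa1 and from -0.78 to -0.52 for Hspe1. The joint signal of Hspa1a was 42.1 and 51.1 in WT LSK against 216 and 214 in WT LK, and 12.0 and 13.95 in Ripk3-/- LSK against 84.9 and 80.4 in Ripk3-/- LK. The log2 differences of Hspa1a, LSK minus LK, were -2.19 ± 0.255 (SE) in WT and -2.58 ± 0.255 in Ripk3-/-. Those of Hspa1b were -1.59 ± 0.23 and -1.98 ± 0.23. Hsph1 was at -1.38 ± 0.24 and -1.07 ± 0.24, Hspd1 at -1.38 ± 0.17 and -1.84 ± 0.17 and Hspa5 at -1.32 ± 0.15 and -1.585 ± 0.15. The smallest of the negative differences was that of Hsp90ab1, at -0.53 ± 0.14 in WT and -0.46 ± 0.14 in Ripk3-/-.

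Dnajb1 ran the other way. Its joint signal was 623 and 767 in WT LSK against 467 and 430.2 in WT LK, and 529 and 496 in Ripk3-/- LSK against 317 and 317 in Ripk3-/- LK. No library of an LK group reached the LSK range, and the log2 differences were 0.62 ± 0.16 (SE) in WT and 0.69 ± 0.16 in Ripk3-/-. Fos was likewise higher in LSK than in LK, with log2 differences of 1.23 ± 0.14 in WT and 1.38 ± 0.14 in Ripk3-/- (adjusted p = 1.96e-06 and 2.79e-07 in limma). Where 8.98% and 7.56% of all genes rose, 15 and 18 of the 22 immediate-early genes did, and 0 of them fell. The part of these genes in the value of Dnajb1 was not tested. The call of Dnajb1 in WT was lost without WT LSK replicate 2 and without WT LK replicate 2.

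Hspa8, Hsp90aa1 and Hspe1 were separated less widely between the populations in WT than in Ripk3-/- cells. The joint signal of Hspa8 was 1334 and 1361.5 in WT LSK against 2204 and 2042 in WT LK, and 819.9 and 695 in Ripk3-/- LSK against 2051 and 2272 in Ripk3-/- LK. The log2 differences were -0.65 ± 0.14 (SE) in WT and -1.515 ± 0.14 in Ripk3-/-. For Hsp90aa1 they were -0.60 ± 0.17 and -1.28 ± 0.17, and for Hspe1 -0.65 ± 0.205 and -1.18 ± 0.205. The change of these differences with genotype is the comparison given above, in which limma called no member.

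Many other chaperone genes, those of the ER among them, were lower in LSK as well. Of 132 tested, 61 fell and 0 rose in WT at an adjusted p under 0.05 in limma, beside 14.9% and 8.98% of all genes. In Ripk3-/-, 56 fell and 2 rose, beside 11.7% and 7.56% of all genes. Without WT LK replicate 1 the WT count was 40, and without Ripk3-/- LK replicate 2 the Ripk3-/- count was 32. Quantile normalization lowered the counts to 29 and 38, and over all genes it moved the share of calls that were lower in LSK from 62.5% to 50.8% in WT and from 60.8% to 50.6% in Ripk3-/-. Of 25 ER chaperones, 19 fell in WT and 18 in Ripk3-/-, and 0 rose. Their median log2 difference was -1.34 in WT and -1.325 in Ripk3-/-, beside 0.05 and -0.003 over all genes. The medians of the 4 small heat shock genes and of the 4 heat shock factor genes tested in WT were above 0, at 0.671 and 0.673, with 0 called. The 2 genes that rose in Ripk3-/- were Hsbp1, which binds heat shock factor 1, with a log2 difference of 0.60 ± 0.185 (SE, adjusted p = 0.0241, limma), and Stub1, the ubiquitin ligase CHIP that works with HSP70, at 0.75 ± 0.25 (adjusted p = 0.0341). Both lie outside the rule for named genes and were named after their values were seen.

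The ER genes with the smallest adjusted p in WT were P4hb and Calr. P4hb, a protein disulfide isomerase, had a log2 difference of -1.89 ± 0.155 (SE) with an adjusted p of 8.39e-09 in limma, and Calr, the lectin chaperone calreticulin, one of -1.70 ± 0.14 with 1.37e-08. Sdf2l1, a cofactor of BiP, fell by 2.11 ± 0.19 on the log2 scale. The disulfide isomerases Pdia3, Pdia6 and Pdia4 fell by 1.70 ± 0.15, 1.75 ± 0.17 and 1.66 ± 0.17. Canx, the membrane-bound lectin chaperone, Hsp90b1 and Serp1 fell by 1.43 ± 0.155, 1.58 ± 0.17 and 1.42 ± 0.17, and Edem1, which hands misfolded glycoproteins to degradation, fell by 1.81 ± 0.23.

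In Ripk3-/- cells, Calr fell by 2.03 ± 0.14 (SE) on the log2 scale, and P4hb fell by 2.09 ± 0.155. Sdf2l1 fell by 2.225 ± 0.19. Pdia4, Pdia6, Pdia3 and Hsp90b1 fell by 1.76 ± 0.17, 1.60 ± 0.17, 1.39 ± 0.15 and 1.54 ± 0.17. Ero1l, the oxidase that recharges disulfide isomerases, fell by 2.33 ± 0.27, the ER reductase Dnajc10 by 1.63 ± 0.21 and Manf, a secreted ER stress protein, by 1.32 ± 0.19. The adjusted p-values of these genes in limma ran from 7.74e-10 for Calr to 1.88e-05 for Manf. Of the other lists, 9 of 14 TRiC and prefoldin genes fell in WT and 7 in Ripk3-/-, beside 14.9% and 11.7% of all genes. Of 20 mitochondrial chaperones and proteases, 10 and 9 fell. Hspa9 was among them, with log2 differences of -1.04 ± 0.17 and -0.91 ± 0.17 (adjusted p = 0.00016 and 0.000547, limma).

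**Figure D4:**
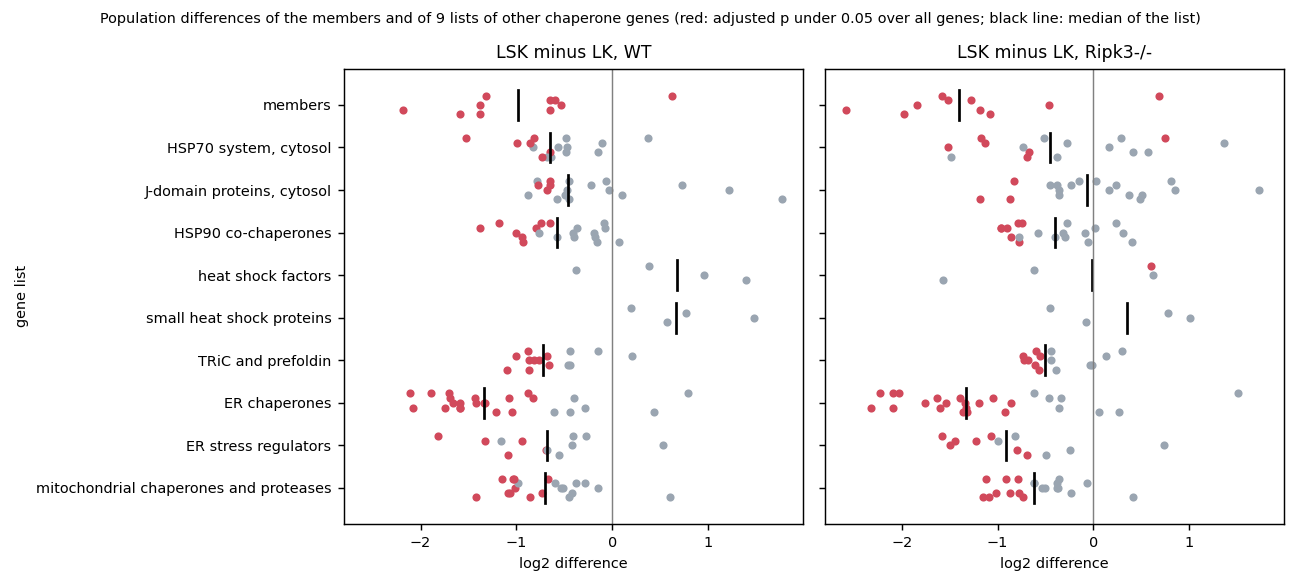
Log2 differences of LSK minus LK after joint scaling in WT (left) and Ripk3-/- (right) for the members and 9 lists of other chaperone genes, 1 point per gene, in red where the adjusted p was under 0.05 over all genes, with a black line at the median of a list. The ER chaperones have medians of -1.34 and -1.325, and among the members only Dnajb1 lies above 0.

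Levels of different genes were compared per kilobase (kb) of the longest coding transcript in GENCODE M21, on the joint scale. Hsp90ab1 had the highest level in all 4 groups, at 1210 ± 29.9 per kb (SD, n = 2) in WT LSK, 1140 ± 115 in Ripk3-/- LSK, 1750 ± 66.8 in WT LK and 1570 ± 151 in Ripk3-/- LK. Hspa8 and Hspa5 came next in every group, at 563 ± 8.04 and 460 ± 34 in WT LSK, 316 ± 37 and 339 ± 22.7 in Ripk3-/- LSK, 887 ± 48 and 1160 ± 225 in WT LK, and 903 ± 65.4 and 1020 ± 59.2 in Ripk3-/- LK. Their order changed between groups, and in Ripk3-/- LSK they differed by less than the larger SD. Hspa1a, Hspa1b and Hsph1 were the lowest 3 members throughout. The level of Hspa1a ran from 4.38 ± 0.455 per kb in Ripk3-/- LSK to 72.4 ± 0.323 in WT LK, and that of Hsph1 from 15.2 ± 4.63 in WT LSK to 39.1 ± 3.19 in WT LK and 39.1 ± 2.09 in Ripk3-/- LK. In WT LSK, Hspa1a at 15.7 ± 2.15 and Hsph1 at 15.2 ± 4.63 were not separated beyond their spread.

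The middle of the order differed between the populations. Dnajb1, at 232 ± 33.9 per kb (SD, n = 2) in WT LSK, was the fourth in LSK and stood above Hspe1 at 191 ± 24.7, Hsp90aa1 at 167 ± 12.8 and Hspd1 at 105 ± 3.01. The difference between Dnajb1 and Hspe1 in WT LSK was within the sum of their SDs. In WT LK, Dnajb1 at 150 ± 8.79 stood below Hspe1 at 302 ± 36.3, Hspd1 at 275 ± 8.08 and Hsp90aa1 at 256 ± 49.9, which overlapped among themselves. The order in Ripk3-/- LK was alike, with Hspe1 at 258 ± 11.7, Hspd1 at 258 ± 18.3, Hsp90aa1 at 254 ± 21.8 and Dnajb1 at 106 ± 0.0431. The levels of Hspa8, Hsp90aa1, Hsp90ab1, Hspd1 and Hspe1 have a limit in common, since 11, 5, 2, 5 and 4 annotated pseudogenes are at least 90% identical to their transcripts over at least 200 bases. Hspe1 also has a protein-coding near-copy, AC117239.2, which differs by 5 mismatches over 515 aligned bases. With the median transcript length of each gene in place of the longest, the level in WT LSK was 772 for Hsp90aa1, 296 for Hspd1 and 4980 for Hsp90ab1. Hsp90ab1 kept the highest level, but Hsp90aa1 then stood above Hspa8 at 668 and Hspa5 at 537, and Hspd1 above Dnajb1 at 238, so the order below Hsp90ab1 depends on the length chosen. How reads that fit several of these were counted is not given in the sources used here.

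**Figure D5:**
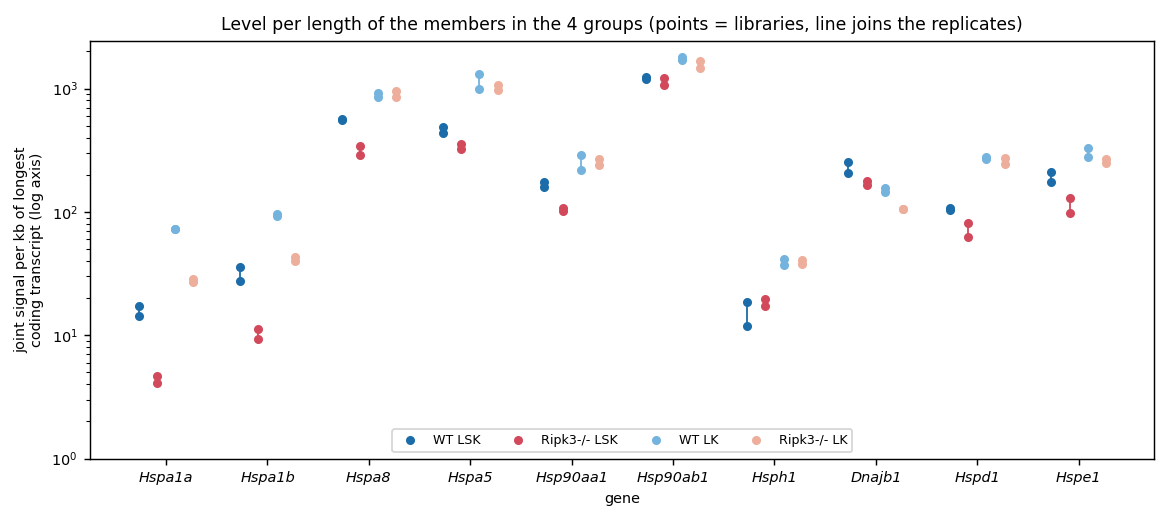
Joint signal per kb of the longest coding transcript (log axis) of the 10 members in the 4 groups, where points are libraries and a line joins the replicates of a group. Hsp90ab1 is the highest in every group at 1140 to 1750 per kb on average, and Hspa1a, Hspa1b and Hsph1 are the lowest.

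The genes whose pattern was most like a member were taken by Pearson's r of log2(signal + 1) across the 8 libraries, each population centred on its own mean, among the 9581 genes whose mean signal reached 5 in both populations. With 4 groups of 2 libraries these values mostly follow the genotype difference, and they are a description. For Hspa1a the closest were Xist at 0.994, Hspa1b at 0.985, Tsc22d1 at 0.984, Sertad1 at 0.978 and Rgs2 at 0.977. Xist, the RNA that silences an X chromosome in female cells, was at 108 to 413 in all WT libraries and at 0 to 1.27 in all Ripk3-/- libraries. For Hspa5 they were Iscu at 0.971, 1110034A24Rik at 0.961, Ccnb2 at 0.959, Acat2 at 0.955 and Hmgb3 at 0.951. For Hspd1 they were BC141885 at 0.992, Vcp at 0.987, BC030867 at 0.977, Tuba1b at 0.976 and AK145129 at 0.973. None of the 15 pairs fell by 0.1 or more when any library was left out.

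Among the members themselves, r over the same 8 centred libraries was 0.985 between Hspa1a and Hspa1b, 0.941 between Hspa1a and Dnajb1 and 0.936 between Hspa8 and Hspd1. It was 0.652 between Hspd1 and Hspe1, which lie next to each other, and 0.495 between the HSP90 genes Hsp90aa1 and Hsp90ab1. Hsph1 had negative values with 8 of the other members, down to -0.64 with Hsp90aa1.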

How the data were processed

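Per the labels, RNA was sequenced from sorted bone marrow LSK and LK cells with a stranded mRNA kit. The submitters' processing notes name TopHat and mm9, and the counter is not given in the sources used here. The deposited signal, headed FPKM by the authors, held in every library whole multiples of 1 step (100% of values above 0, within 0.01 of a whole number), so it was read as library-scaled reads without length division. Whole reads were recovered from it. The main test was limma (3.58.1, R 4.3.3; trend), fitted to log2(signal + 1) of all 8 libraries with a mean for each of the 4 groups. Genes were kept at a mean signal of 1 or more over the libraries compared, and p-values were adjusted by Benjamini-Hochberg over all genes tested (two-sided). LSK was compared with LK on reads scaled jointly by TMM. An exact permutation test of 2 against 2 libraries cannot go below a two-sided p of 0.333. Alternatives were edgeR (4.0.16), DESeq2 (1.42.0), other scalings, filters and pseudocounts, a replicate block and leaving out each library. On simulated data, the fit called 26.4% of 72 genes changed 2-fold in LSK and 32.8% of 67 in LK. At 4-fold it called 77.6% of 58 and 79.1% of 67, and of unchanged genes 0.0491% and 0.0585%. A gene without a call may thus still differ 2-fold. The changed genes were drawn at random over a wide range of signal, and no share was worked out for the signals of the members. Replicates differed by more than sampling noise (chi-square per degree of freedom 20.8 to 28.9). The members and gene lists were chosen with earlier results of these data known. Genes were named by a rule: the members, other chaperone genes called (up to 10 per comparison), Hsf1, Hsp90b1, Hspa9 and Bag3, the 5 genes most like Hspa1a, Hspa5 and Hspd1, and Ripk3, Xist and Fos among markers, beside Ly6a, named to check the sort. The names Bat3 and H2-Ke2 stood for Bag6 and Pfdn6. Positions and transcripts are from GENCODE M21 (GRCm38), near-identical transcripts from BLAST (2.17.0+) and promoter windows from RefSeq (GRCm38.p6).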

Additional observations from a re-analysis of the deposited data

Results flagged for a closer look

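No member met a rule for a closer look, and with 2 libraries per group no library could be tested as an outlier. The genotype difference of Ripk3 itself differed between the populations by a log2 value of -2.40 ± 0.51 (SE, adjusted p = 0.0343, limma interaction), since the signal left in Ripk3-/- cells was higher in LK than in LSK. Dnajc10, the ER reductase, had both Ripk3-/- libraries below WT in LSK (signal 59.0 and 66.0 against 90.5 and 91.3) and above WT in LK (150.8 and 151 against 118 and 134). The difference of its genotype effects was -0.80 ± 0.30 on the log2 scale with an adjusted p of 0.372 in limma, so it did not pass the test.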

How the results depend on the processing

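The limits are the 2 libraries per group, the sex difference between genotypes and the reads that near-identical genes share. Hspa1a and Hspa1b stayed lower in Ripk3-/- cells under every alternative run, with log2 differences from -2.15 to -1.64 and from -1.85 to -1.39 in LSK and from -1.42 to -1.25 and from -1.28 to -1.06 in LK. Since the genotypes did not overlap for either gene, leaving out a library could change the size of a difference but not its sign. The 4 members called in LSK became 2 to 4 when a library was left out, and the 2 in LK became 0 to 2, and 0 with no filter. Members called for the difference of the effects went from 0 to 1 with quantile normalization and with DESeq2. Those called between populations in WT went from 10 to 6 with quantile normalization and to 7 with no filter.

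Other chaperone genes called in LSK went from 2 to 1 with a pseudocount of 0.1 and with edgeR, to 0 with no filter and with separate fits, to 4 with quantile normalization and to 6 with DESeq2. They became 0 to 1 when a library was left out. The 0 called in LK became 1 with DESeq2 and with separate fits, and the 0 called for the difference of the effects became 1 with DESeq2. Between populations, quantile normalization gave 29 in WT in place of 61 and 38 in Ripk3-/- in place of 58, and leaving out a library gave 40 to 65 and 32 to 60. The cause of these changes was not tested. A left-out library leaves fewer samples in the fit, and no filter brings more genes into the test.

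Among genes never called between genotypes, quantile normalization turned the sign for Bag3 in LSK (-0.083), Hspa9 in LK (0.107), Hsf1 between populations in WT (0.042) and Hsp90b1 for the difference of the effects (-0.041). Leaving out a library turned some signs, with ranges in LSK of -0.411 to 0.149 (Hsf1), -0.127 to 0.336 (Hspa9) and -0.191 to 0.386 (Bag3), and in LK of -0.025 to 0.237 (Hsf1) and -0.111 to 0.061 (Hspa9). The ranges for the difference of the effects were -0.517 to 0.043 (Hsf1), -0.171 to 0.274 (Hsp90b1) and -0.102 to 0.361 (Hspa9), and Bag3 between populations in Ripk3-/- gave -0.046 to 0.375. The adjusted p of Chordc1 in LSK ran from 0.00258 to 0.122 over the alternatives and that of Hsf5 from 0.0152 to 0.163.

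Same-numbered deviations from the group means correlated at -0.098 and -0.011 between genotypes and at -0.145 and -0.015 between populations. With 2 libraries per group these values cannot show whether replicate numbers pair the samples. With the replicate number as a block, the counts of other chaperone genes were 2, 0 and 0 for the genotype comparisons and 57 and 52 between populations, and those of members 4, 2, 0, 10 and 9. In LSK, Chordc1 kept its call under the block (adjusted p = 0.031) and Hsf5 lost it (adjusted p = 0.0744), so another gene was the other of the 2. Crossing the pairing of the Ripk3-/- libraries, chosen after seeing the data, gave 66.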
